A study of Homo sapiens with 6 samples.

Results

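The core genes of the epithelial to mesenchymal transition were followed in A549 cells, a human cell line derived from a lung adenocarcinoma. They are 10 listed genes: the cadherins CDH1 and CDH2, the junction protein OCLN, the intermediate filament VIM, the matrix protein FN1, and the transcription factors ZEB1, ZEB2, SNAI1, SNAI2 and TWIST1. Of the 10, 8 were among the 19876 gene symbols of the count table, and 7 had enough counts to be tested. SNAI2 and TWIST1 were not analysed here, and CDH1 was too low to test. Transcripts of wild-type cells were sequenced after culture with rhTR11B, 3 libraries, or with phosphate-buffered saline (PBS) as the negative control, 3 libraries. Both groups grew in DMEM with serum and antibiotics, and the labels give neither the dose nor the time of rhTR11B. The libraries are named as biological replicates with no word on separate cultures, so each p-value is set against library spread that may be technical only.

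In this transition, epithelial cells give up their junctions and polarity and take on the shape and motility of mesenchymal cells. E-cadherin (CDH1) and occludin (OCLN) hold epithelial cells together, whereas N-cadherin (CDH2), vimentin (VIM) and fibronectin (FN1) are the usual markers of the mesenchymal side. The zinc-finger factors Snail (SNAI1, SNAI2) and ZEB (ZEB1, ZEB2) and the helix-loop-helix factor TWIST1 drive the switch, and Snail and ZEB proteins repress junction genes by binding E-boxes of the form CAGGTG. The comparison asked which of these transcripts differ when TR11B is supplied from outside lung cancer cells.

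Promoter windows of RefSeq (GRCh38.p14; 250 bases before to 50 after a transcription start) were found for 6 of the 10 genes. The windows of OCLN are shown because occludin is a known target of Snail, and capitals mark each E-box CAGGTG, searched on both strands. The FN1 window is shown because FN1 had the largest fold change of the members; its capitals mark a cAMP response element TGACGTCA and a CCAAT box, also searched on both strands. That of CDH2, the other member that rose, has capitals on its CCAAT box, read on the opposite strand as ATTGG.
OCLN window 1, chr5:69492297-69492596, plus strand: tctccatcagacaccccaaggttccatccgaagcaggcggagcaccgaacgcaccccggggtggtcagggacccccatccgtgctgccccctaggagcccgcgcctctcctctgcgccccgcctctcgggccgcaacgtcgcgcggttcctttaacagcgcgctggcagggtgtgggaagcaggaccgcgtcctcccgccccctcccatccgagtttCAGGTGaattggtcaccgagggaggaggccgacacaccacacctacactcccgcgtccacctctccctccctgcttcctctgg
OCLN window 2, chr5:69492540-69492839, plus strand: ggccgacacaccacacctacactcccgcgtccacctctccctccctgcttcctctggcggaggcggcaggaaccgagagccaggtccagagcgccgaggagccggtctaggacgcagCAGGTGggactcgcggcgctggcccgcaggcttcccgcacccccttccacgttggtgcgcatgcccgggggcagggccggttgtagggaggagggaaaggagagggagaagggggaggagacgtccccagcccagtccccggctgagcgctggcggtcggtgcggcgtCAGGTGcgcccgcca
FN1, chr2:215436019-215436318, minus strand: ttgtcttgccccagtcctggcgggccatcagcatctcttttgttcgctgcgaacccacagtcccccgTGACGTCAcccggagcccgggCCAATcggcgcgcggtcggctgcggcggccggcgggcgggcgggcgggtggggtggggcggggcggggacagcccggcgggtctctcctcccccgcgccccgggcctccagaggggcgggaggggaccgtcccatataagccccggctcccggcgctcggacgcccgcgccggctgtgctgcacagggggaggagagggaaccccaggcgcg
CDH2 window 1, chr18:28177081-28177380, minus strand: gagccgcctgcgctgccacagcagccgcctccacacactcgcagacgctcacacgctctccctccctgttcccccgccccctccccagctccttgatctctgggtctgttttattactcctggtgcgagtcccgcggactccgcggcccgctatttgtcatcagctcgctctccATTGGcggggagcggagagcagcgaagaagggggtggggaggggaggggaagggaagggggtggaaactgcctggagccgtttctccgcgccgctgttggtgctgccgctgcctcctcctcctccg
The OCLN windows held E-boxes starting at -33 in window 1 and at -133 and 36 in window 2, counted from each window's start site. Window 1 of OCLN also held a CCAAT box at -26, left in lower case. Of the 7 ZEB1 windows, the first held 1 E-box and the third held 3. No E-box stood in the windows of CDH2, VIM, FN1 and ZEB2. E-boxes occurred in 20.6% of all 35116 windows of this length, cAMP response elements in 1.85% and CCAAT boxes in 34.6%. The FN1 window held its cAMP response element at -183 and its CCAAT box at -162. A GC box, GGGCGG on both strands, was searched too and is left in lower case. It stood 6 times in the FN1 window and 1 time each in window 1 of CDH2 and of OCLN, and in 45.0% of all windows. The motifs were chosen after the windows had been seen, and a match of letters is no evidence of binding.

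The 6 libraries held 36315751 to 38148838 counts. The 13 mitochondrially encoded genes took 7.88% to 10.4% of the counts with rhTR11B and 6.63% to 7.71% with PBS, and genes of cytosolic ribosomal proteins took 3.85% to 4.57% with rhTR11B and 5.00% to 5.15% with PBS. The rhTR11B library 3 had both the highest mitochondrial share and the lowest ribosomal one. These shares moved with the groups. Without the 13 mitochondrially encoded genes, a setting chosen after seeing the data, CDH2 had a log2 fold change of 0.40 (edgeR adjusted p = 0.00625) and FN1 of 0.79 (0.0267). Dropping these rows can alter the other genes only through scaling and shared fit settings, so it does not measure what goes along with the mitochondrial share. The part of either share in the results was not tested. Counts of the epithelial genes EPCAM, KRT19, ESRP2, EHF, ST14, RAB25 and LAD1 lay between 0 and 10 in every library, while the keratins KRT8, KRT18 and KRT7 were among the most abundant transcripts. EPCAM and KRT19 had been listed as markers of the line; KRT8, KRT18 and NQO1 were high, and the other 5 listed markers (ALDH1A1, AKR1B10, SFTPB, SFTPC and NKX2-1) were not analysed here. EPCAM and KRT19 near 0 go against the markers listed for the line, and the identity of the cells was not tested further. They are called A549 as labelled.

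The members spanned a wide range of expression in these libraries, from VIM among the most abundant transcripts to CDH1 at almost nothing. Levels are given in FPKM, fragments scaled to gene length and to the reads counted per library, which allows genes to be compared with each other. VIM (chromosome 10, 17228241 to 17237593 on GRCh38.p14) had 396 ± 14.2 FPKM with rhTR11B and 409 ± 4.76 FPKM with PBS (SD, n = 3 each), rank 103 of 19876 symbols in PBS. CDH2 (chromosome 18, 27932879 to 28177130) followed at 33.5 ± 2.27 FPKM with rhTR11B and 25.7 ± 1.34 FPKM with PBS, rank 2397. The Snail gene SNAI1 (chromosome 20, 49982980 to 49988886) stood at 5.10 ± 0.559 FPKM with rhTR11B and 5.48 ± 0.521 FPKM with PBS. OCLN (chromosome 5, 69492547 to 69558104) stood at 4.88 ± 0.433 FPKM with rhTR11B and 4.09 ± 0.286 FPKM with PBS. Between SNAI1 and OCLN the libraries did not overlap with PBS, where SNAI1 had at least 4.91 FPKM and OCLN at most 4.41. They overlapped with rhTR11B.

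Below these came ZEB1 (chromosome 10, 31318417 to 31529804) at 2.64 ± 0.117 FPKM with rhTR11B and 2.79 ± 0.148 FPKM with PBS. ZEB2 (chromosome 2, 144384081 to 144520119) had 0.601 ± 0.0445 FPKM with rhTR11B and 0.612 ± 0.0390 FPKM with PBS. FN1 (chromosome 2, 215360865 to 215436068) had 0.623 ± 0.117 FPKM with rhTR11B and 0.367 ± 0.0598 FPKM with PBS, rank 12096 in PBS. All 3 PBS libraries had less FN1 than any had ZEB2. With rhTR11B the libraries of both genes overlapped, with FN1 below ZEB2 in libraries 1 and 2 and above it in library 3.

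CDH1 (chromosome 16, 68737292 to 68835537), the E-cadherin gene, had 1, 1 and 0 counts with rhTR11B and 0, 1 and 0 counts with PBS. The sum of 2 counts with rhTR11B corresponds to 0.00373 FPKM (95% exact Poisson interval 0.000451 to 0.0135) and the 1 count with PBS to 0.00181 FPKM (4.58e-05 to 0.0101). These intervals cover counting error only, and a difference in CDH1 was not detectable at this level. Over all 6 libraries CDH2 stood 10700 times above CDH1 per length, with a counting interval of 3670 to 52000. E-cadherin transcript was thus near 0 in the PBS cells as well.

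**Figure D1:**
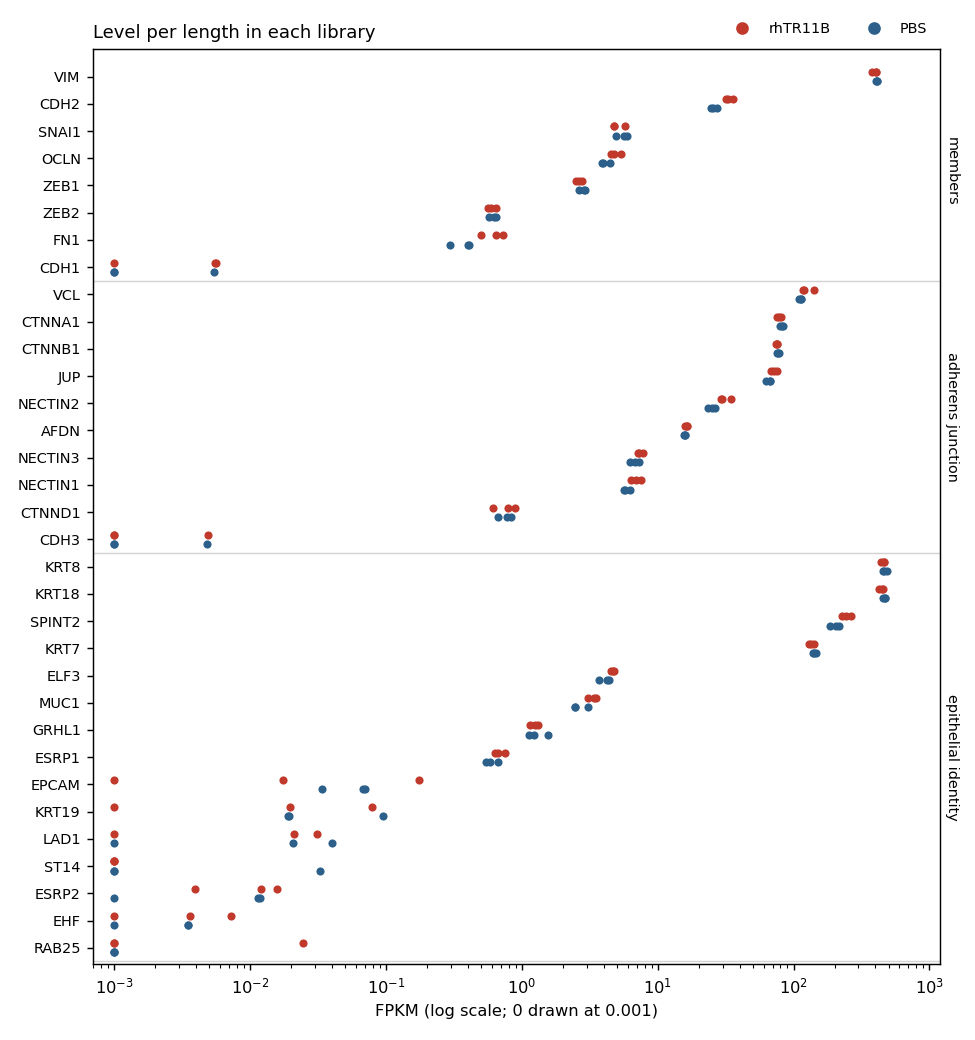
Level of each gene in FPKM (log scale, 0 drawn at 0.001) in the 3 rhTR11B and 3 PBS libraries, for the 8 members in the table, the adherens junction list and the epithelial identity list. Each point is 1 library. VIM lies beside the keratins KRT8 and KRT18, whereas CDH1 and CDH3 had no more than 1 count in a library.

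Among the structural members, N-cadherin and fibronectin transcripts were higher in cells given rhTR11B and vimentin was not called. Of the 7 tested members, 2 rose, 0 fell and 5 did not pass edgeR's quasi-likelihood test (Benjamini-Hochberg adjusted p under 0.05 over 13567 genes), which called 3.60% of all tested genes, 2.92% as higher and 0.678% as lower. At an unadjusted p under 0.05 there were 3 members, all higher, where 24.2% of all tested genes had such a p, 13.8% of all as higher. DESeq2's Wald test called 3 members higher and 0 lower, where it called 5.61% of all tested genes higher and 2.55% lower. The rhTR11B libraries lay wholly above the PBS libraries for 3 members, CDH2, FN1 and OCLN, and wholly below for none, where 29.1% of all tested genes had groups that did not overlap, 15.1% above and 14.0% below. The members' median log2 fold change was -0.01, and that of all tested genes was 0.00.

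CDH2 had 146, 149 and 168 CPM (counts scaled to library size by the TMM method) in the rhTR11B libraries and 124, 111 and 117 CPM in the PBS libraries. Every rhTR11B library exceeded every PBS library, with rhTR11B library 3 highest. CDH2 rose 1.32-fold (log2 fold change 0.40, SE 0.07, 95% interval 0.26 to 0.53, adjusted p = 0.00556). Its log2 fold change lay between 0.33 and 0.44 when any 1 library was dropped, and the call was lost without PBS library 2 (adjusted p = 0.0702) and without PBS library 3 (0.0977).

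FN1 encodes the adhesive glycoprotein of the matrix that fibroblasts lay down and that integrins bind. It had 5.54, 4.24 and 6.37 CPM with rhTR11B, from 202, 158 and 227 counts, and 3.45, 2.52 and 3.41 CPM with PBS, from 129, 97 and 130 counts. The groups did not overlap, although rhTR11B library 2 stood close to the upper PBS libraries. FN1 rose 1.72-fold (log2 fold change 0.78, SE 0.18, 95% interval 0.41 to 1.15, adjusted p = 0.0257). Leaving out 1 library gave log2 fold changes of 0.65 to 0.93, and the call was lost without PBS library 2 (adjusted p = 0.165), PBS library 3 (0.140) or rhTR11B library 3 (0.0562).

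Markers of fibroblasts, which make both fibronectin and vimentin, were given beside these values: 7 of the 8 listed were in the table, with a summed level of 0.780 to 1.26 FPKM with rhTR11B and 0.486 to 0.668 FPKM with PBS. Most of it was COL1A1, at 4.73 ± 0.796 CPM with rhTR11B and 3.07 ± 0.435 CPM with PBS (log2 fold change 0.62, adjusted p = 0.0511). LUM had 6, 27 and 11 counts with rhTR11B and 6, 2 and 8 counts with PBS, and COL3A1 had 10, 10 and 4 counts with rhTR11B and 5, 4 and 6 counts with PBS. The other 4, DCN, PDGFRA, PDGFRB and THY1, had at most 2 counts in any library. The part of these markers in the FN1 result was not tested. Endothelial markers, 3 of 5 in the table, summed to 0.0427 to 0.0591 FPKM with rhTR11B and 0.0284 to 0.0931 FPKM with PBS. Of 5 blood cell markers only CD14 was in the table, at 7 to 21 counts with rhTR11B and 7 to 15 counts with PBS. In bulk RNA, fewer cells of a type and less RNA per cell cannot be told apart.

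VIM encodes the intermediate filament protein of mesenchymal cells. Its libraries had 873, 871 and 836 CPM with rhTR11B and 866, 880 and 883 CPM with PBS. The groups overlapped, and the log2 fold change was -0.03 with a 95% interval of -0.15 to 0.10 (adjusted p = 0.814). Per length, VIM stood at 0.870 to 0.879 of KRT8, the keratin of simple epithelia, with rhTR11B and at 0.847 to 0.890 with PBS, so the ratio of the filament types overlapped too.

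The junction member OCLN had values above those of PBS in the rhTR11B libraries without passing the test. It had 28.9, 29.7 and 34.5 CPM with rhTR11B and 25, 27.5 and 24.5 CPM with PBS. The groups did not overlap, with rhTR11B library 3 again highest. The log2 fold change was 0.27 (SE 0.08, 95% interval 0.10 to 0.44, adjusted p = 0.0631). OCLN passed with DESeq2 (adjusted p = 0.0369), without the filter on low counts (0.0226), without rhTR11B library 1 (0.0317) and with the replicate number as a block (0.0297). It did not pass in any other setting, among them limma-voom (0.0685), scaling by library size alone (0.0750) and limma on log2(FPKM + 1) with no filter (0.294). Without rhTR11B library 3 its log2 fold change was 0.19 (edgeR adjusted p = 0.175). The ratio of CDH2 to OCLN per length was 6.72 to 6.99 with rhTR11B and 5.57 to 6.84 with PBS, and the groups overlapped.

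None of the 3 transcription factors that could be tested passed, and each had overlapping groups. SNAI1 had 8.21, 8.10 and 9.99 CPM with rhTR11B and 10.1, 8.26 and 9.55 CPM with PBS (log2 fold change -0.08, 95% interval -0.33 to 0.16, adjusted p = 0.702). ZEB1 had 22.7, 20.5 and 22.1 CPM with rhTR11B and 23.2, 21.2 and 23.8 CPM with PBS (-0.06, -0.23 to 0.10, adjusted p = 0.676). ZEB2 had 6.06, 5.44 and 5.30 CPM with rhTR11B and 5.70, 5.22 and 6.01 CPM with PBS (-0.01, -0.28 to 0.26, adjusted p = 0.973). All 3 intervals hold 0, and a difference between these factors and CDH2 was not tested. Antisense genes partly overlap VIM, ZEB1 and ZEB2 in position, and the strand of the counting is not given, so reads of such pairs may be mixed. ZEB1-AS1 had 4.35 ± 0.414 CPM with rhTR11B and 3.86 ± 0.507 CPM with PBS (adjusted p = 0.536), VIM-AS1 1.68 ± 0.401 CPM with rhTR11B and 1.82 ± 0.149 CPM with PBS (adjusted p = 0.793), and ZEB2-AS1 at most 1 count in a library.

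**Figure D2:**
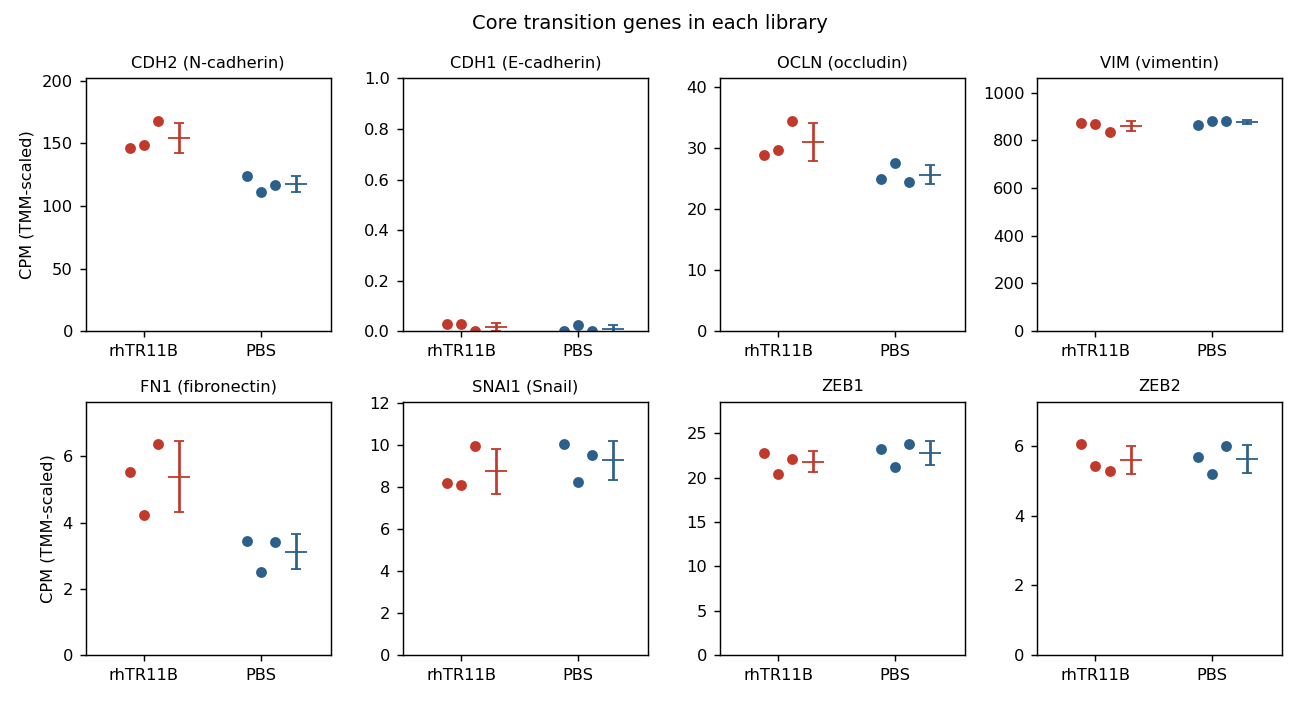
CPM of the 8 members in the table, each in its own panel with its own axis from 0. Points are libraries, rhTR11B left and PBS right, and bars beside them give the mean and SD (n = 3). In CDH2, FN1 and OCLN the groups do not overlap, and in VIM, SNAI1, ZEB1 and ZEB2 they do.

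**Figure D3:**
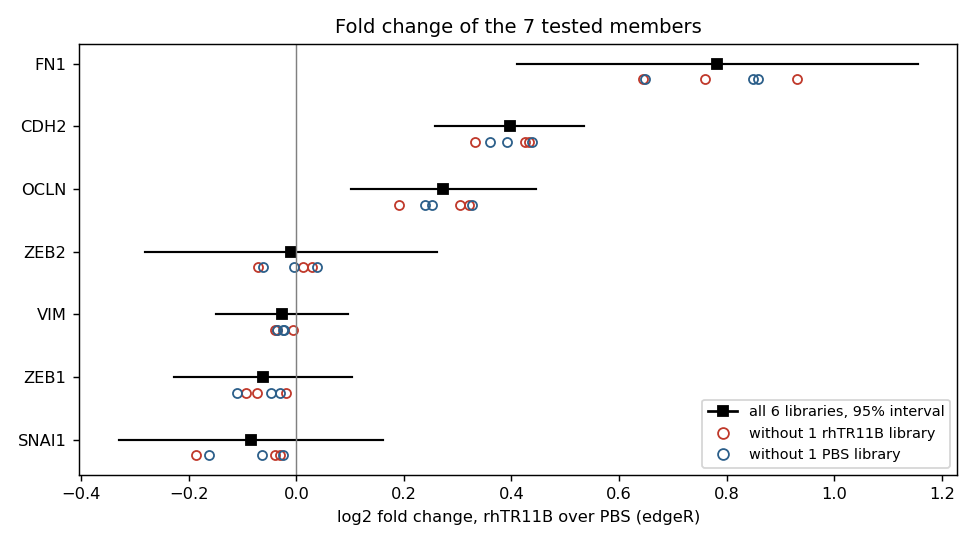
Log2 fold change of rhTR11B over PBS for the 7 tested members. Squares and lines give the value and 95% interval with all 6 libraries, and open circles the values with 1 library left out. Circles of FN1, CDH2 and OCLN all lie above 0, and those of ZEB2 fall on both sides of it.

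Around the members, 7 lists of 128 genes were read from the same fit, 94 of them tested. Of these 94, 15 rose and 0 fell, where the same test called 2.92% of all tested genes higher and 0.678% lower. These shares are the background for the counts of each list below as well. The lists were drawn up with earlier results of these data known. No list was tested as a set, and the lists' medians are set beside the 0.00 of all tested genes. The called genes were not stable to the control libraries: 2 of the 15, LRP1 and MMP14, passed without PBS library 2 and 0 without PBS library 3, while 11 to 15 passed without any 1 of the other libraries.

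Of 9 tested genes of adherens junctions, 1 rose and 8 did not pass. Their levels ran from CTNND1, the catenin p120, at 0.759 ± 0.142 FPKM with rhTR11B and 0.756 ± 0.0793 FPKM with PBS, up to VCL. The catenins CTNNA1 and CTNNB1, which tie cadherins to actin, had log2 fold changes of -0.05 (adjusted p = 0.612) and -0.02 (0.879). Plakoglobin (JUP) had 298 ± 17.1 CPM with rhTR11B and 270 ± 11.7 CPM with PBS (0.14, adjusted p = 0.162). The called gene was NECTIN2, an immunoglobulin-like adhesion protein, with 99.8, 101 and 121 CPM in the rhTR11B libraries and 88.8, 79.1 and 85.5 CPM in the PBS libraries (log2 fold change 0.34, adjusted p = 0.0211). NECTIN1 had 0.26 (adjusted p = 0.0612) and the actin linker vinculin (VCL) 0.18 (0.140). The list's median was 0.14. The placental cadherin CDH3 had at most 1 count in a library.

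Of 19 tested tight junction and desmosome genes, 4 rose and 15 did not pass, with a median of 0.15. The 4 were the junctional adhesion molecule F11R (log2 fold change 0.28, adjusted p = 0.0249), the desmosomal cadherins DSG2 (0.26, 0.0312) and DSC2 (0.26, 0.0344), and periplakin (PPL), which links desmosomes to filaments. PPL had 45.2, 50.5 and 59.4 CPM with rhTR11B and 39.1, 35.6 and 41.8 CPM with PBS (0.41, adjusted p = 0.0211). The claudin gene CLDN1 was the most abundant of the list at 341 ± 22.4 FPKM with rhTR11B and 311 ± 16.9 FPKM with PBS (0.15, adjusted p = 0.184), and the scaffold gene TJP1 had -0.04 (0.740).

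Of 8 tested genes of epithelial identity, 1 rose, with a median of 0.09. It was SPINT2, an inhibitor of surface serine proteases, at 416 ± 36.04 CPM with rhTR11B and 340 ± 26.8 CPM with PBS (log2 fold change 0.29, adjusted p = 0.0350). The keratins KRT7, KRT8 and KRT18 had -0.06, -0.03 and -0.05 (adjusted p = 0.537, 0.828 and 0.659). The mucin MUC1 had 0.34 (adjusted p = 0.0718) and the epithelial factor ELF3 0.20 (0.191). The splicing regulator ESRP1, which keeps epithelial isoforms, had 2.70 ± 0.234 CPM with rhTR11B and 2.34 ± 0.245 CPM with PBS (adjusted p = 0.536).

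The other transition factors and their cofactors numbered 15 tested genes. None passed edgeR's test (0 of 15), 3 had an unadjusted p under 0.05, where 24.2% of all tested genes did, and the median was -0.05. KLF8, a zinc-finger factor, had 19.7 ± 1.44 CPM with rhTR11B and 16.0 ± 0.414 CPM with PBS (log2 fold change 0.30, adjusted p = 0.0502). FOXC2, a forkhead factor, had -0.18 (adjusted p = 0.167), and CTBP1, a corepressor that ZEB proteins recruit, had -0.12 (0.201).

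Of 15 tested mesenchymal effectors, 1 rose and 14 did not pass, with a median of 0.09. CD44, the hyaluronan receptor, had 791, 816 and 930 CPM with rhTR11B and 685, 669 and 647 CPM with PBS (log2 fold change 0.34, adjusted p = 0.0145). The tropomyosin TPM2 had -0.20 (adjusted p = 0.0531) and the matrix protein TNC 0.37 (0.129). The contractile genes ACTA2 and TAGLN were low, at 0.991 ± 0.279 and 3.31 ± 0.218 CPM with rhTR11B, against 0.933 ± 0.334 and 3.88 ± 0.663 CPM with PBS. CCN2, a common target of TGF-beta and YAP signalling, had a log2 fold change of -0.25 (adjusted p = 0.137).

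The list of fibronectin receptors and turnover had the highest median of the 7 lists, 0.34. Of its 12 tested genes 7 rose, where 2.92% of all tested genes were called higher. It was drawn up with earlier results of these data known, and none of its calls held without PBS library 3. All 12 had positive log2 fold changes, from 0.20 to 0.48. LRP1, an endocytic receptor that clears matrix proteins, had 115, 133 and 139 CPM with rhTR11B and 100, 85.7 and 91.7 CPM with PBS (log2 fold change 0.48, SE 0.07, adjusted p = 0.00311). The matrix protein FBLN1, which binds fibronectin, had 181 ± 20.1 CPM with rhTR11B and 141 ± 10.3 CPM with PBS (0.36, adjusted p = 0.0187). The surface protease MMP14 and the receptors ITGA5, ITGAV, ITGB3 and SDC4 were called as well, with log2 fold changes of 0.41, 0.36, 0.29, 0.32 and 0.23. The shared integrin chain ITGB1 had 0.21 (adjusted p = 0.0711), and the cross-linking enzyme TGM2 0.20 (0.0547). Unlike FN1 itself, its receptor genes ITGB1 and ITGAV were abundant, at 352 ± 18.7 and 149 ± 7.86 FPKM with rhTR11B and 309 ± 4.53 and 124 ± 7.24 FPKM with PBS.

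Of 16 tested inducers and their receptors 1 rose, the receptor NOTCH2 (log2 fold change 0.24, adjusted p = 0.0365), and the median was 0.16. EGFR had 0.22 (adjusted p = 0.0550) and TGFBR2 0.21 (0.0590). The ligand TGFB1 had 220 ± 19.1 CPM with rhTR11B and 199 ± 9.32 CPM with PBS (adjusted p = 0.188), and the feedback inhibitor SMAD7 had -0.09 (0.508).

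**Figure D4:**
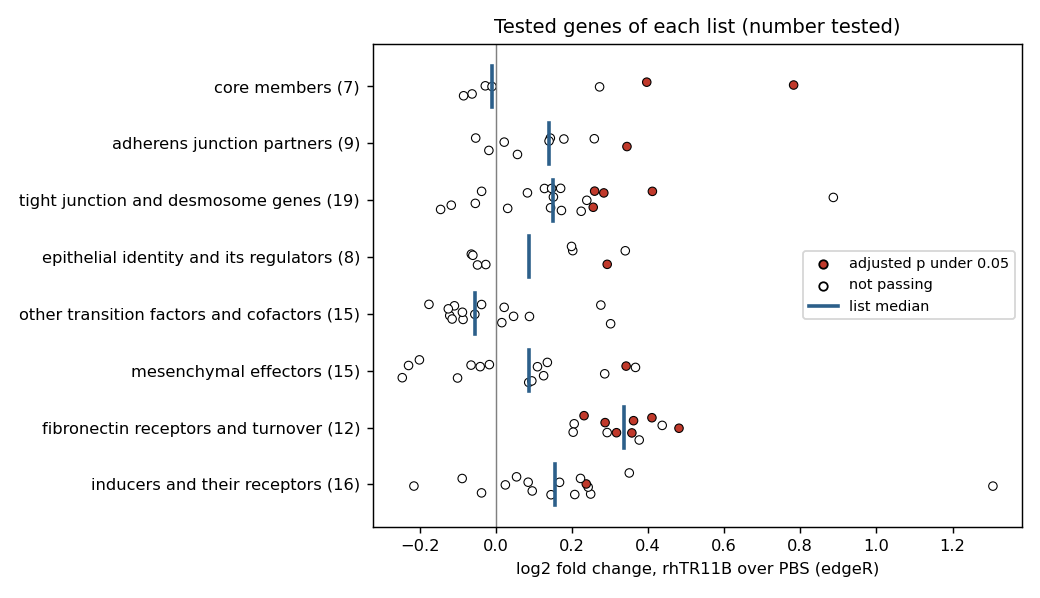
Log2 fold change of rhTR11B over PBS for the tested members and the tested genes of the 7 surrounding lists. Filled points passed an adjusted p of 0.05, open points did not, and vertical bars are list medians. The bar of fibronectin receptors and turnover stands at 0.34 and that of other transition factors and cofactors at -0.05.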

How the data were processed

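RNA sequencing of 6 A549 libraries gave 2 deposited tables. The authors' deposited read counts per gene symbol, and their deposited FPKM values, come from a pipeline naming fastp, HISAT, HTSeq, R 3.2.0, DESeq2 and build GRCh38, per the submitters' processing notes. For the annotation and strand setting, no source used here has a statement. No symbol had 0 counts in every library.

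From the counts, edgeR 4.0.16 in R 4.3.3 kept genes by filterByExpr (minimum count 10), scaled with TMM, and ran the quasi-likelihood test on group alone with Benjamini-Hochberg adjustment over 13567 genes (threshold 0.05). The SE is the log2 fold change divided by the square root of F. Chi-square per degree of freedom between libraries of a group was 5.13 to 24.7, so none was merged as a duplicate. Pairs with rhTR11B library 3 had 21.8 and 24.7, and the other pairs 5.13 to 9.09. The scripts were tested on simulated data, where 77.6% of the genes changed 1.3-fold were recovered. Each gene was drawn on its own, with no deviation shared across a library, so recovery with such deviations was not tested. False calls were 16 of all 180 calls. DESeq2 1.42.0 and limma 3.58.1 served alternatives.

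Members, lists and tests were chosen with earlier results of these data known. Named are all members, every called list gene, and the 3 closest profiles of each called member. Up to 3 tested genes per list with the smallest p, called ones included, are named too. Other list genes named were chosen after their values were seen. Of 19876 symbols, 18832 matched RefSeq. Intervals cover counting error or library spread only.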

Additional observations from a re-analysis of the deposited data

How the results depend on the processing

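Counts of calls, higher and lower, are given over all genes tested in a setting (396 and 92 as reported). Counts over its tested list genes (15 and 0 of 94 as reported) and the members called higher (2) follow. The genes tested numbered 13567 as reported, 19876 with no filter, 10371 with the 5 CPM filter and 10812 with the FPKM filter. DESeq2 gave 761 and 346, then 24 and 2; no filter on low counts gave 940 and 483, then 25 and 3. Both also called OCLN, for 3 members. A mean of at least 5 CPM gave 205 and 26 and 1 member, since FN1 was filtered out. Scaling by library size alone called 1 list gene lower. With limma on log2(FPKM + 1) and a mean FPKM of at least 1, the counts were 62 and 21, then 2 and 0, with 1 member; with log2(FPKM + 0.1) they were 64 and 22, then 2 and 0, with 1 member, and FN1 and ZEB2 were filtered out in both. With log2(FPKM + 1) and no filter limma called 0 and 0 genes, 0 list genes and 0 members, with 3073 genes at an unadjusted p under 0.05. The cause of these differences was not tested.

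Leaving out 1 library gave 9 to 903 genes higher and 3 to 427 lower, 0 to 24 list genes higher and 0 to 2 lower, and 0 to 3 members higher. Without PBS library 2 there were 18 and 5 genes called, and without PBS library 3 there were 9 and 3, with 0 members in either. ZEB2 changed sign, between -0.0706 and 0.0375 with 1 library left out and 6e-04 with a mean of at least 5 CPM.

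Over all tested genes, same-numbered libraries did not deviate together (r of -0.10, 0.05 and -0.01), and not every library correlated best with its own number. Whether same-numbered libraries share a batch was not tested. A replicate block moved the calls to 774 and 252 genes, then 23 and 1 list genes, with 3 members, OCLN being the third. Leaving out the 13 mitochondrially encoded genes, chosen after seeing the data, left 75 genes called lower and 2 members higher.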

Other observations

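The wider cadherin family, chosen after its values were seen, had 20 numbered CDH genes in the table, of which 7 were tested. Of these 7, 2 rose and 0 fell, where 2.92% of all tested genes were called higher and 0.678% lower. Beside CDH2, CDH13 (T-cadherin, which lacks the transmembrane and cytoplasmic parts of other cadherins) rose, with 2.69 ± 0.270 FPKM with rhTR11B and 2.06 ± 0.136 FPKM with PBS (edgeR log2 fold change 0.40, adjusted p = 0.0231). CDH24 was second in level after CDH2, at 9.57 ± 0.887 FPKM with rhTR11B and 8.36 ± 0.356 FPKM with PBS (0.21, adjusted p = 0.0969). CDH16 had 11, 48 and 31 counts with rhTR11B and 13, 9 and 10 counts with PBS (adjusted p = 0.0649), with 1 rhTR11B library among the PBS values. CDH2 made up 71.7% to 72.8% of the summed FPKM of these genes with rhTR11B and 70.2% to 70.6% with PBS.

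The profiles nearest to those of the called members were found among 11343 other genes with a mean of at least 2 CPM, by the root mean square difference of centred log2 CPM over the 6 libraries. PMP22, HLA-E and ECE1 were nearest to CDH2, at 0.022, 0.023 and 0.026 log2 units. LENG8-AS1, RTN4RL2 and EBI3 were nearest to FN1, at 0.13, 0.13 and 0.16. The likeness rests on group difference and library deviations together.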
